A study of Mus musculus with 13 samples.

Results

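A list of 51 genes of DNA replication and mitosis was followed liver by liver in wild-type mice and in mice whose hepatocytes lack Sel1L, at 3 and at 9 weeks of age. The genes were chosen by name for their roles in copying DNA and in dividing the copies between daughter cells. A gene counted as measured where the array had a feature (a set of probes summarised to 1 value) that carries its symbol and no other. This left 43 of the 51, out of 18820 genes measured in this way, and a gene with several such features was read from the brightest of them, by its mean over the 13 livers. The 8 genes not followed were Gins2, Rfc4, Tyms, Ccne2, Foxm1, Kif20a and Nusap1, whose features also carry the symbol of another gene, and Ccnb1, for which no feature was listed.

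The 13 livers came from 4 groups on the C57BL/6J background, with 1 Affymetrix whole-transcript array per liver. These were 4 Sel1L-deficient and 3 wild-type livers at 3 weeks, and 3 Sel1L-deficient and 3 wild-type livers at 9 weeks. In the Sel1L-deficient mice a floxed exon of Sel1l is removed by Cre recombinase under the albumin promoter, which acts in hepatocytes, so the other cells of the liver keep the gene. The labels do not say whether the wild-type mice carried floxed alleles or Cre, and they do not give the sex of the mice. All mice were fasted in the morning before the livers were taken. Sel1L is the partner of the ubiquitin ligase Hrd1 in the degradation of misfolded proteins of the endoplasmic reticulum.

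A cell that is to divide first loads the MCM helicase onto the origins of replication, with Cdc6 and Cdt1 as loaders. It then fires those origins in S phase, and later enters mitosis under the cyclin-dependent kinase Cdk1 and the kinases Plk1, Aurka and Aurkb. The replication genes are classic targets of the E2F transcription factors. Many mitotic genes are instead held down in resting cells by the DREAM complex and driven in dividing cells by B-Myb and FoxM1, through a promoter element called the cell cycle genes homology region (CHR), often beside CCAAT boxes bound by NF-Y. In the mouse liver, hepatocytes divide while the organ grows after birth, become polyploid around weaning and are mostly at rest in the adult.

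The promoters of 4 members show these elements. They are the 2 replication and the 2 mitosis genes with the smallest p for the change with age in wild type among those that have a single promoter entry. Each sequence runs from 250 bases before the RefSeq transcription start to 50 bases after it (build GRCm38.p6), 5′ to 3′ on the strand of the gene, and capitals mark matches to the motifs. The E2F motif was searched in the forms TTGGCGC and also TTCCCGC and further TTCGCGC and finally TTGCCGC. The CHR was searched as TTTGAA and in its variant form TTTAAA, and the CCAAT box by the letters of its name, all on both strands. Mcm6 (chr1:128359656-128359955, minus strand) codes for a subunit of the helicase, Prim1 (chr10:128014965-128015264, plus strand) for the small primase subunit, Plk1 (chr7:122159185-122159484, plus strand) for a mitotic kinase and Ccnb2 (chr9:70421505-70421804, minus strand) for cyclin B2.
Mcm6: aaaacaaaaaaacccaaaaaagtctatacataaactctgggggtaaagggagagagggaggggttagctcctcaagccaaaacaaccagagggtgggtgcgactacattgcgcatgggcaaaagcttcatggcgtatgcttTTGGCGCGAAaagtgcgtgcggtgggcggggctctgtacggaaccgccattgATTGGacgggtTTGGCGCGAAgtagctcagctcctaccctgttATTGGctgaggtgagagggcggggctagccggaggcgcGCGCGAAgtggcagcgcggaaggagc
Prim1: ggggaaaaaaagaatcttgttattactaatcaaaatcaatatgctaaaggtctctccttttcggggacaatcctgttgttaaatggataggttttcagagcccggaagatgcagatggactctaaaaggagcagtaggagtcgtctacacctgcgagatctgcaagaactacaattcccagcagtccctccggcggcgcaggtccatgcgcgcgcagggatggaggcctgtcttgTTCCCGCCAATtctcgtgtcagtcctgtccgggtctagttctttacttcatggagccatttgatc
Plk1: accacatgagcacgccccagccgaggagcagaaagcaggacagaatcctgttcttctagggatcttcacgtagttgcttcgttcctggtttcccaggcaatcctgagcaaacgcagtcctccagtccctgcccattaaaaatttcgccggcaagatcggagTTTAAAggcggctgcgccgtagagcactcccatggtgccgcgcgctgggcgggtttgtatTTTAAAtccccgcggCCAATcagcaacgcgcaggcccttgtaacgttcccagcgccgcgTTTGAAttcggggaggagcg
Ccnb2: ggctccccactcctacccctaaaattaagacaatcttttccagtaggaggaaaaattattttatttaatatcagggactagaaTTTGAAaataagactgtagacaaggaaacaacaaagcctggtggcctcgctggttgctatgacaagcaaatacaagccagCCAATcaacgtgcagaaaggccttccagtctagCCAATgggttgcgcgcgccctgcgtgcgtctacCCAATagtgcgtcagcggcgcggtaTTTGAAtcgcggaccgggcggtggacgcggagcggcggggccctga

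In the Mcm6 window the E2F motif was matched 5 times. Those starting 109 and 46 bases before the start site each overlap a match on the opposite strand, and the last begins 25 bases after the start. Prim1 has 1 E2F match, 15 bases before the start, which shares 1 base, its last, with a CCAAT box. Neither of these windows holds a CHR match. Plk1 has 3 CHR matches, starting 89 and 29 bases before and 31 bases after the start, and Ccnb2 has 2, of which 1 begins 5 bases after the start, downstream of 3 CCAAT boxes at 87, 54 and 21 bases before it. Neither holds an E2F match. TTTAAA reads the same on both strands and was counted once.

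Over the members with a promoter window that was used (37 of 43, with 40 windows), the motifs divided by role. E2F matches were in 13 of 19 replication windows (68.4%) and in 4 of 21 mitosis windows (19%), beside 9.57% of all 32851 promoter windows of the table. CHR matches were in 20 of 21 mitosis windows (95.2%) and in 6 of 19 replication windows (31.6%), beside 27.6% of all windows. CCAAT boxes were in 14 of 19 replication windows (73.7%) and 19 of 21 mitosis windows (90.5%), beside 37.4% of all. A match is a stretch of letters and says nothing on binding in these livers. Mcm4, Gins1, Ccna2, Aurkb and Tpx2 were not among the entries. Member windows on chromosome 18 were left out, and Cdc25c lies on that chromosome. The shares over all windows had no such exclusion.

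By role, the 43 genes were 11 of origin licensing and the helicase, 5 of DNA and nucleotide synthesis, 4 of S phase control, 7 mitotic cyclins, kinases and their regulators, 8 of the kinetochore and spindle checkpoint, 6 of the spindle and cytokinesis, and the chromosome genes Top2a and Mki67. The first 3 roles make 20 replication genes and the other 4 make 23 mitosis genes. All values are the deposited log2 expression values, so a difference of 1 is a 2-fold difference. Array medians lay between 3.72 and 3.81, and 8 members (Cdc6, Cdc25c, Bub1, Bub1b, Ttk, Cenpe, Cenpf and Kif23) had means below the lowest of them. In wild-type livers at 9 weeks 18 of the 43 group means were below that level, and at 3 weeks 6 were. Where such a level is array background, a difference to or from it is a lower bound.

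Sel1l itself was between 7.10 and 8.42 in the 4 Sel1L-deficient livers at 3 weeks, against 8.77 to 8.94 in wild type. At 9 weeks it was between 7.54 and 7.90 in Sel1L-deficient livers, against 8.70 to 8.78 in wild type. The groups did not overlap at either age, though with adjusted p of 0.391 and 0.108 neither difference passed the test. The summed signal of 7 hepatocyte markers, among them Alb and Apoa1, lay between 15.25 and 15.45 on the log2 scale in all 13 livers. These are whole livers, in which fewer dividing cells and less of these RNAs per cell cannot be told apart.

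Sel1L-deficient livers at 3 weeks were not alike in these genes. As the median over the 43 genes of the difference from the wild-type mean at 3 weeks, the 4 Sel1L-deficient livers of that age stood at -0.18, -0.08, -0.89 and -0.75, against 0.16, 0.11 and -0.23 in wild type. At 9 weeks the Sel1L-deficient livers stood at -0.80, -0.78 and -0.83 on the same scale, against -1.15, -1.07 and -1.15 in wild type. By this median over all 43, replicates 3 and 4 at 3 weeks were about as low as the Sel1L-deficient livers of 9 weeks. Replicates 1 and 2 lay within the wild-type range. By role the first comparison differed. In S phase control replicates 3 and 4 stood at -0.91 and -0.82, against -0.42 to -0.37 in Sel1L-deficient livers at 9 weeks. In the mitosis genes they stood at -0.78 and -0.69, against -0.98 to -0.88. Both low livers were below both others in 38 of 43 members (88.4%), and in 4606 of 21218 features with 1 gene symbol (21.7%). Sel1l had the same order, at 7.20 and 7.10 in replicates 3 and 4 against 8.42 and 7.90 in replicates 1 and 2. Whether the level of Sel1l has a part in the split was not tested. The array descriptions name a position column, 5 or 7, and each column held 1 of the low livers and 1 of the others. The medians and counts over gene lists that use the 3-week Sel1L-deficient livers are therefore also given without replicates 3 and 4, a choice made after their values were seen, while values of single genes are with all 4 livers. Markers of some other liver cells had this order too. As medians from the wild-type mean at 3 weeks, 8 sinusoidal endothelial markers stood at -0.06, -0.17, -0.28 and -0.33 in replicates 1 to 4, and 8 stellate cell markers at 0.01, -0.11, -0.29 and -0.35. The erythroid, Kupffer, monocyte and neutrophil, lymphocyte and bile duct medians did not have this order. In replicates 1 to 4 the erythroid medians were -0.35, -0.41, -0.33 and -0.21, and the Kupffer medians -0.39, -0.46, -0.53 and -0.19. Of the 8 erythroid markers 4 had means below the lowest array median. By summed signal, in which bright genes weigh more, the erythroid list did have the order. It was at 7.34 and 7.5 in replicates 3 and 4, against 7.91 and 7.61 in replicates 1 and 2. The summed Kupffer, monocyte and neutrophil, lymphocyte and bile duct signals did not have it. The part of any of these cells in the split was not tested.

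**Figure D1:**
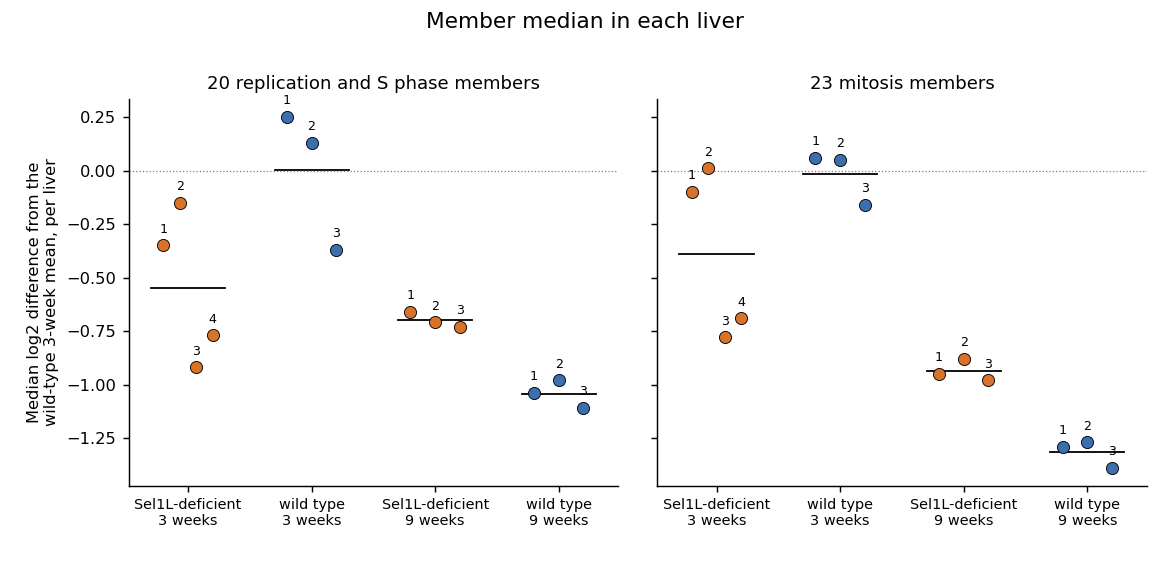
Median over the 20 replication genes (left) and the 23 mitosis genes (right) of the log2 difference from the wild-type mean at 3 weeks, 1 numbered point per liver, with a line at the group mean. Sel1L-deficient replicates 3 and 4 at 3 weeks lie apart from replicates 1 and 2, and at 9 weeks the 3 Sel1L-deficient livers lie above the 3 wild-type livers in both panels.

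The spread between livers of a group was wider for these genes than for the array as a whole. The median within-group SD of a member was 0.42 log2 units in Sel1L-deficient and 0.342 in wild-type livers at 3 weeks, and 0.192 in Sel1L-deficient and 0.203 in wild-type livers at 9 weeks. Over all features the 4 medians lay between 0.148 and 0.156. The 3-week livers thus give the less precise group means for these genes.

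**Figure D2:**
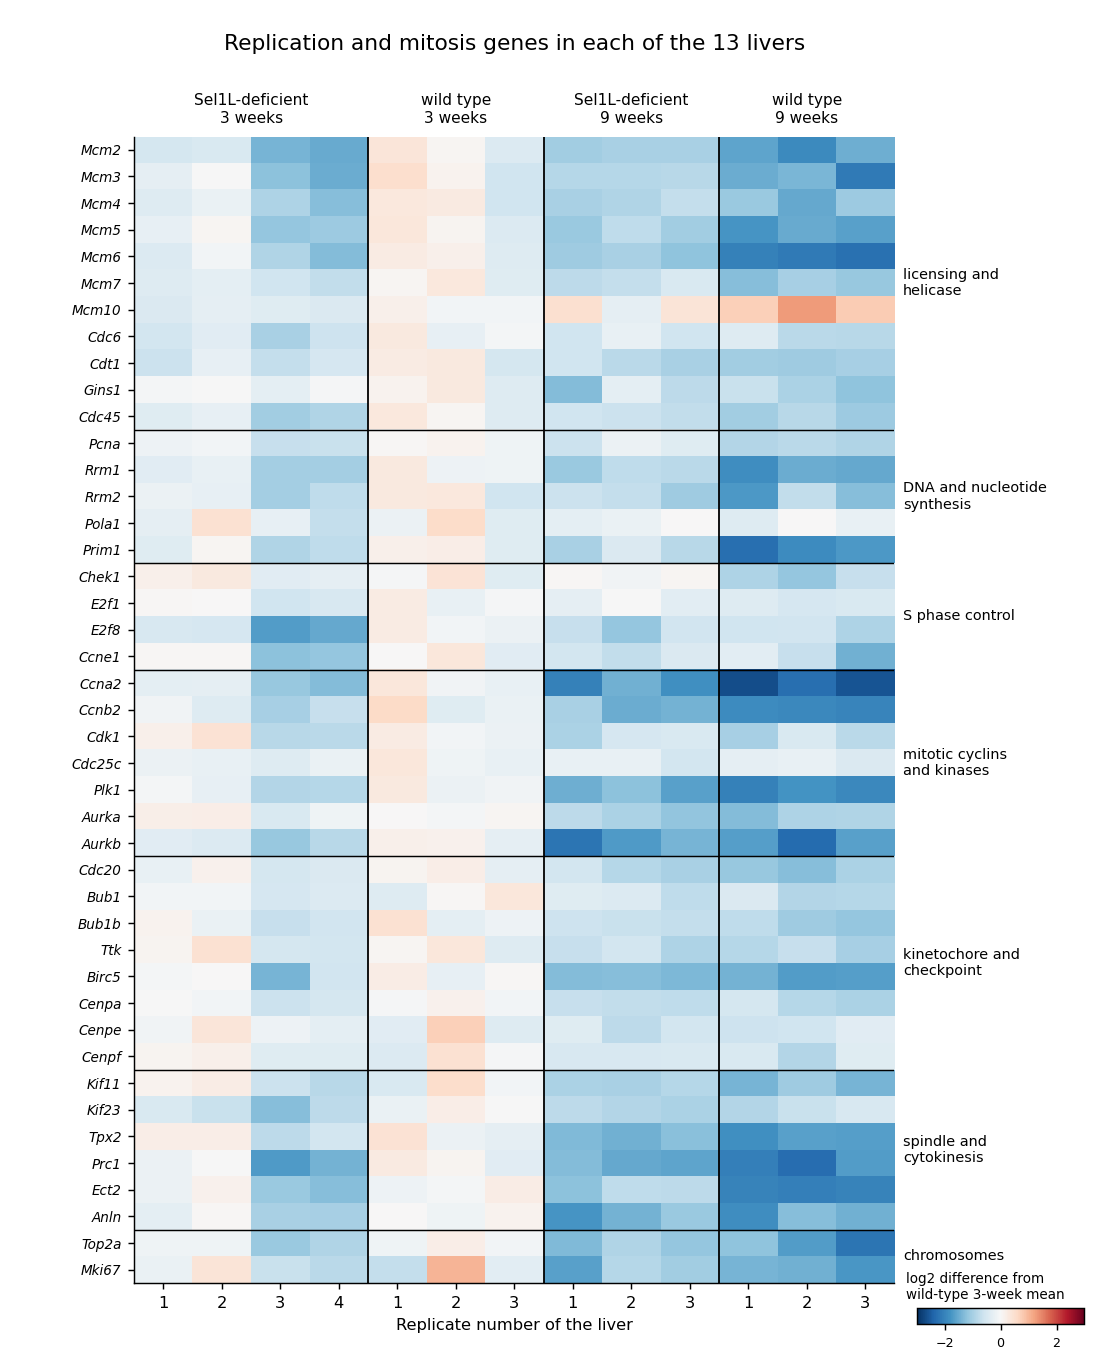
Log2 difference of each of the 43 genes (rows, by role) from its mean over the wild-type livers at 3 weeks, in each of the 13 livers (columns), on a colour scale of log2 units. The 9-week wild-type columns are low for nearly all genes, Mcm10 runs the other way, and Sel1L-deficient replicates 3 and 4 at 3 weeks are lower than replicates 1 and 2.

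Wild-type livers at 9 weeks had lower levels of nearly all of these genes than at 3 weeks. Of the 43, 42 had a difference below 0, and 24 passed the test at an adjusted p under 0.05, against 1.89% of the 35556 features of the array. Of these 23 fell, as did 1.12% of features, and Mcm10 alone rose, as did 0.765%. The median difference was -1.13 log2 units, a 2.18-fold lower level, beside 0.00 over all features with 1 symbol. In 38 members every wild-type liver at 9 weeks was below every wild-type liver at 3 weeks, as were 9.38% of features, and in Mcm10 every one was above, as in 8.46%.

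Among the licensing and helicase genes 6 of 11 fell. Mcm6 was at 4.80, 4.71 and 4.59 in the 9-week wild-type livers, against 7.07, 6.97 and 6.43 at 3 weeks. Its groups are far apart, with a difference of -2.12 ± 0.27 (SE, adjusted p = 0.00295), or 4.36-fold lower. Mcm2, another subunit of the helicase ring, fell by 1.66 (adjusted p = 0.0156), Mcm7 by 1.14, and Mcm5, the loader Cdt1 and the helicase activator Cdc45 also passed. Mcm3 (-1.66, adjusted p = 0.0609), Mcm4 (-1.25) and Gins1 (-0.94) did not pass.

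Mcm10, which acts at origins when the helicase is switched on, stood at 6.14, 6.71 and 6.19 in 9-week wild-type livers, against 5.58, 5.34 and 5.35 at 3 weeks. It rose by 0.92 ± 0.20 (SE, adjusted p = 0.0393), the opposite of the other helicase genes. Its promoter window holds 3 CCAAT boxes and neither an E2F nor a CHR match. The windows of Pcna and E2f1, whose wild-type means were lower at 9 weeks, also lack both.

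Of the 5 synthesis genes 3 fell. Prim1, which makes the RNA primers of new DNA, was at 3.19, 3.56 and 3.72 in 9-week wild-type livers, against 5.59, 5.65 and 5.09 at 3 weeks (-1.96 ± 0.26, SE, adjusted p = 0.00389). The large subunit of ribonucleotide reductase, Rrm1, fell by 1.63 (adjusted p = 0.00574), and Pcna, the sliding clamp of the polymerases, by 0.86 (adjusted p = 0.0319). Rrm2 (-1.24, adjusted p = 0.0844) and the polymerase subunit Pola1 (-0.20, adjusted p = 0.833) did not pass. Pcna has a second feature with nearly the same values (mean 8.16 for both), so signal from near copies of the gene cannot be told apart.

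No gene of S phase control passed, out of 4. Chek1, the checkpoint kinase of replication stress, differed by -0.92 (adjusted p = 0.0561), the cyclin gene Ccne1 by -0.81, E2f8 by -0.70 and E2f1 by -0.45. E2F8 is a repressor of the E2F family and is known in the mouse liver for its part in polyploidy.

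By its median, -1.86, the role of mitotic cyclins and kinases had the deepest fall, with 5 of 7 genes past the test. Ccna2, cyclin A2, was at 3.59, 4.00 and 3.66 in 9-week wild-type livers, against 6.59, 6.14 and 6.04 at 3 weeks. Its difference of -2.50 ± 0.29 (SE, adjusted p = 0.00212) was the largest of the 43, a 5.67-fold lower level. Plk1 fell by 1.92 (adjusted p = 0.00212), Ccnb2 by 1.93 (adjusted p = 0.00486), Aurkb by 1.86 and Aurka by 1.04. Cdk1, their central partner, differed less, at 4.14, 4.67 and 4.32 in 9-week livers, against 5.38, 5.04 and 4.96 at 3 weeks (-0.75 ± 0.32, SE, adjusted p = 0.323). Cdc25c, the phosphatase that activates Cdk1, was dim at both ages (-0.31, adjusted p = 0.391).

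Of the 8 kinetochore and checkpoint genes 4 fell: Cdc20, which activates the anaphase-promoting complex, by 1.13 (adjusted p = 0.0132), the checkpoint kinase Bub1b by 1.00, Birc5 of the chromosomal passenger complex by 1.58, and Cenpa, the histone of the centromere, by 0.78. Of the 6 spindle and cytokinesis genes 4 fell. Ect2, which turns on RhoA at the cleavage furrow, was at 4.46, 4.40 and 4.44 in 9-week wild-type livers, against 6.29, 6.39 and 6.68 at 3 weeks (-2.02 ± 0.32, SE, adjusted p = 0.0106). Prc1, which bundles microtubules of the midzone, fell by 2.01, Tpx2, an activator of Aurora A on the spindle, by 1.71, and Anln, a scaffold of the contractile ring, by 1.53.

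Of the chromosome genes, Top2a, the topoisomerase that untangles sister chromatids, was at 4.35, 3.88 and 3.36 in 9-week wild-type livers, against 5.42, 5.76 and 5.47 at 3 weeks (-1.69 ± 0.30, SE, adjusted p = 0.0179). Mki67, the gene of the Ki-67 antigen, was at 3.78, 3.74 and 3.42 in 9-week livers, against 4.47, 6.19 and 4.87 at 3 weeks. Its groups do not overlap, but with 1 liver of 3 weeks well above the others the difference of -1.53 ± 0.42 (SE) had an adjusted p of 0.106.

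With single livers left out the count of 24 was lower. It was 10 without wild-type replicate 1 at 3 weeks and 14 without replicate 2 of that group. Without wild-type replicate 1, 2 or 3 at 9 weeks it was 14, 12 and 13. Features called were 672 in the main fit and 321, 414, 376, 296 and 298 in these fits, in the same order. In all, 10 genes passed whichever of the 13 livers was left out: Mcm6, Mcm7, Rrm1, Prim1, Ccna2, Ccnb2, Plk1, Aurkb, Tpx2 and Ect2. Markers of other cells moved with age as well: of 8 erythroid markers 7 were below 0 and Slc4a1, band 3 of the red cell membrane, fell by 1.90 (adjusted p = 0.0197), and of 8 Kupffer cell markers all were below 0 and Marco fell by 2.09 (adjusted p = 0.0299). Summed erythroid signal was 7.68 to 8.27 in wild-type livers at 9 weeks against 7.96 to 8.66 at 3 weeks, and summed Kupffer signal 10.38 to 10.84 against 11.00 to 11.09. Of 8 sinusoidal endothelial markers 6 were below 0 and 3 fell, namely Lyve1 (-1.14, adjusted p = 0.00438), Stab2 (-0.44, adjusted p = 0.0337) and Oit3 (-0.56, adjusted p = 0.0481). Their summed signal was 11.00 to 11.08 at 9 weeks against 11.21 to 11.37 at 3 weeks. Of 8 stellate cell markers 7 were below 0 and Reln fell by 0.72 (adjusted p = 0.0315), with a summed signal of 10.67 to 11.00 at 9 weeks against 11.09 to 11.23 at 3 weeks. The part of these cells in the falls was not tested.

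In Sel1L-deficient livers the same genes differed less between 9 and 3 weeks. Of the 43, 35 were below 0, none was called, against 0.155% of features, and the median difference was -0.32, beside 0.00 over features with 1 symbol. The smallest adjusted p was 0.0612, for Aurka, and 13 members had an unadjusted p under 0.05 in the downward direction, against 4.88% of features, and Mcm10 (0.56) in the upward direction, against 5.19%. The replication and the mitosis genes differed in their medians: -0.06 for the 20 replication genes, of which 12 were below 0, and -0.59 for the 23 mitosis genes, which were all below 0. The 13 members whose 9-week livers all lay below the 3-week ones, against 4.69% of features, were all mitosis genes: Ccna2, Plk1, Aurka, Aurkb, Cdc20, Ttk, Cenpa, Cenpe, Cenpf, Kif11, Tpx2, Anln and Mki67. In wild type the corresponding medians were -1.01 for replication and -1.29 for mitosis genes. The difference between the sets was not tested.

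Aurka, the kinase of spindle poles, was at 3.94, 3.76 and 3.53 in Sel1L-deficient livers at 9 weeks, against 4.89, 4.93, 4.26 and 4.59 at 3 weeks. Each of the older livers lay below each of the younger, with a difference of -0.93 ± 0.17 (SE). Tpx2, its activator, was at 4.32, 4.20 and 4.39 at 9 weeks, against 5.85, 5.84, 4.87 and 5.10 at 3 weeks (-1.11 ± 0.24, SE, adjusted p = 0.124). Among the replication genes, Mcm2 was at 5.11, 5.17 and 5.19 in Sel1L-deficient livers at 9 weeks, against 5.62, 5.70, 4.77 and 4.65 at 3 weeks. The older livers lie between the high and the low pair of the younger ones, and the difference was -0.03 ± 0.27 (SE, adjusted p = 0.989).

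This comparison turns on replicates 3 and 4 of the 3-week group. Without them the median difference was -0.68, 42 of 43 members were below 0, and 5 were called, namely Ccna2, Plk1, Aurka, Birc5 and Tpx2. All 5 were lower at 9 weeks, against 49 of 35556 features called lower and 67 called in either direction. The median of the replication genes was then -0.43, with 19 of 20 below 0, and that of the mitosis genes -1, with all 23 below 0. Members whose 9-week livers all lay below the 3-week ones were then 38, of which 16 were replication genes, against 11.6% of features, so that the restriction to mitosis genes holds with all 4 livers and not without these 2.

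**Figure D3:**
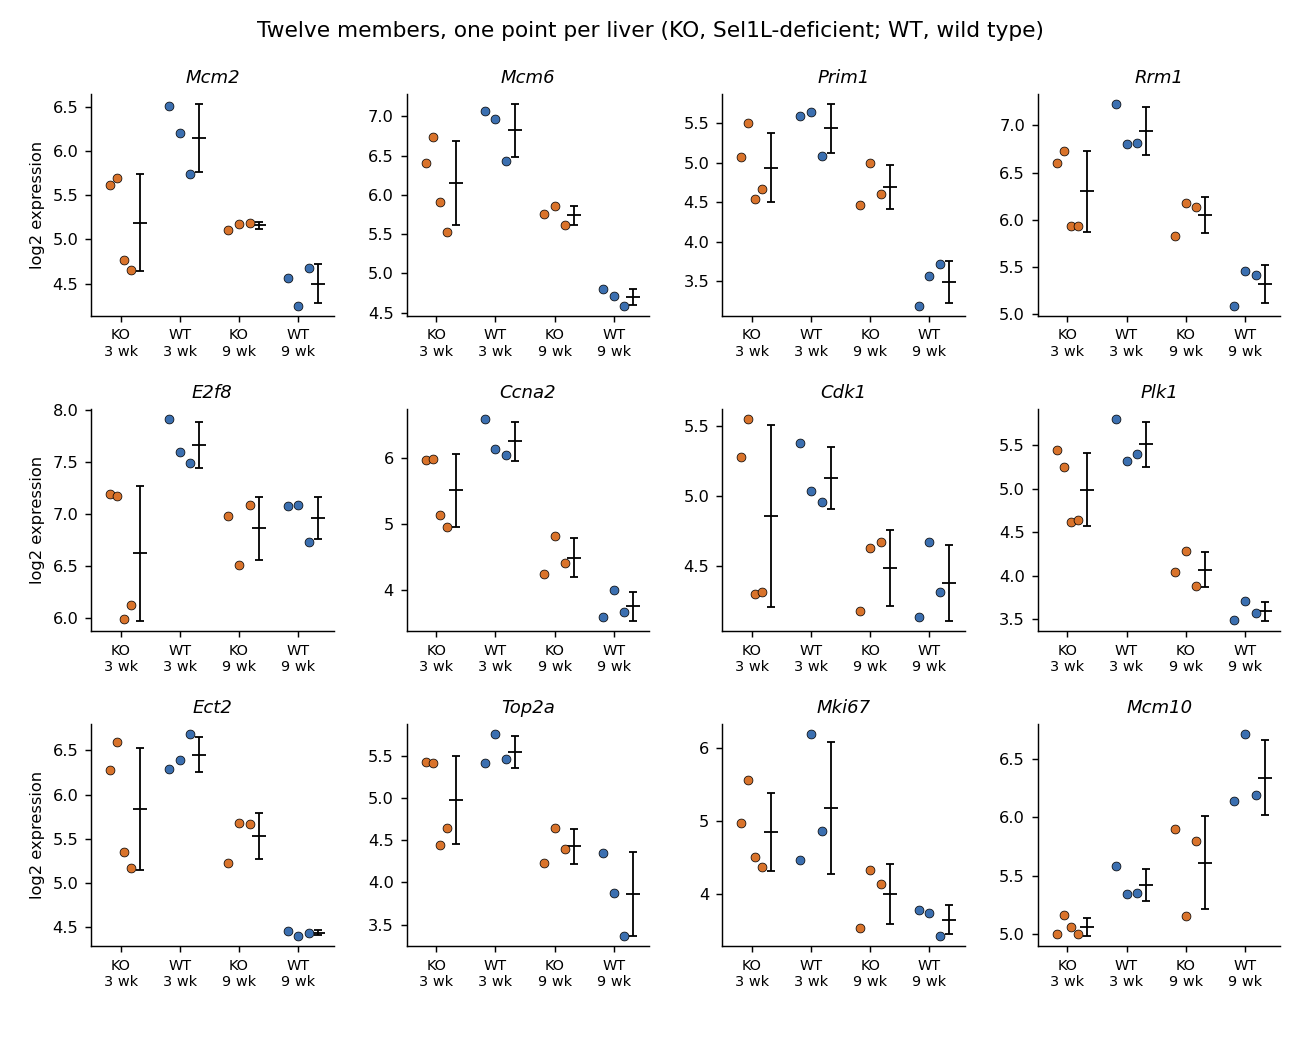
Log2 expression of 12 members in each liver, with Sel1L-deficient left of wild type at each age (x axis: the 4 groups, y axis: log2 expression, points: livers, bars: mean ± SD). Prim1 and Ect2 lie higher in all Sel1L-deficient than in all wild-type livers at 9 weeks, and Mcm10 lies lower.

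At 3 weeks all 43 genes had lower means in Sel1L-deficient than in wild-type livers, with a median difference of -0.50 and a range of -1.05 to -0.04. Over features with 1 symbol the median was 0.00. None was called by limma, as was none of the 35556 features (0%), and the smallest adjusted p of a member was 0.391. At an unadjusted p under 0.05, 16 of 43 were lower, against 3.5% of features. With 1 of the 13 livers left out this count was 6 to 24, against 2.44% to 4.19% of features. It was 6 and 9 without wild-type replicate 1 or 2 at 3 weeks. Without Sel1L-deficient replicate 3 or 4 it was 8 and 9, and without Sel1L-deficient replicate 1 or 2 it was 24. With only the livers of the 2 groups in the limma fit, 10 members were lower, against 3.21% of features. In 8 members all 4 Sel1L-deficient livers were below all 3 wild-type livers, against 3.53% of features: Mcm2, Mcm10, Cdc6, Rrm1, E2f8, Ccna2, Aurkb and Kif23.

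E2f8 had the largest difference. It was at 7.19, 7.17, 5.99 and 6.12 in Sel1L-deficient livers at 3 weeks, against 7.91, 7.59 and 7.49 in wild type, a difference of -1.05 ± 0.30 (SE, adjusted p = 0.464). Even the higher pair of Sel1L-deficient livers lay below the wild-type range. Mcm2 was at 5.62, 5.70, 4.77 and 4.65 in Sel1L-deficient livers, against 6.51, 6.21 and 5.74 in wild type (-0.97 ± 0.27, SE, adjusted p = 0.439). Here the higher pair came close to the lowest wild-type liver.

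Kif23, a kinesin of the central spindle, had the smallest p, at 3.76, 3.54, 2.94 and 3.43 in Sel1L-deficient livers against 4.01, 4.41 and 4.20 in wild type (-0.79 ± 0.17, SE, adjusted p = 0.391). Its level is below the array medians in most livers. Rrm1 was at 6.60, 6.73, 5.93 and 5.93 in Sel1L-deficient livers, against 7.23, 6.80 and 6.81 in wild type (-0.64 ± 0.21, SE, adjusted p = 0.557). Ccna2 was at 5.97, 5.99, 5.13 and 4.96 in Sel1L-deficient livers, against 6.59, 6.14 and 6.04 in wild type (-0.74 ± 0.27, SE, adjusted p = 0.597). In both genes the highest Sel1L-deficient liver came close to the lowest wild-type liver.

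The other members overlapped between the genotypes. Cdk1 was at 5.28, 5.55, 4.30 and 4.32 in Sel1L-deficient livers, against 5.38, 5.04 and 4.96 in wild type (-0.26 ± 0.30, SE, adjusted p = 0.874). Top2a was at 5.43, 5.42, 4.44 and 4.65 in Sel1L-deficient livers, against 5.42, 5.76 and 5.47 in wild type. Mki67 was at 4.97, 5.56, 4.51 and 4.37 in Sel1L-deficient livers, against 4.47, 6.19 and 4.87 in wild type. In Cdk1 and Top2a the low pair of Sel1L-deficient livers was below the wild-type range, and in Mki67 1 liver of that pair was. Chek1 (-0.04), Cenpe (-0.05) and Aurka (-0.05) differed least in their means. Of the 43 members, Sel1L-deficient replicates 1 and 2 were below all wild-type livers in 15 and 11, and replicates 3 and 4 in 37 each.

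Without replicates 3 and 4 the median difference at 3 weeks was -0.13, 31 of 43 members were below 0 and 3 had an unadjusted p under 0.05 in the downward direction, against 2.08% of features. The medians of the replication and the mitosis genes were then -0.23 and -0.06. The same 8 members had all remaining Sel1L-deficient livers below all wild-type livers, against 9.54% of features, a share that is higher because only 2 livers have to be below. Within position column 5 (2 livers of each genotype) the median was -0.38 with 35 of 43 below 0, and within column 7 (2 Sel1L-deficient livers and 1 wild-type liver) it was -0.59 with all 43 below 0. With all 4 Sel1L-deficient livers, erythroid and Kupffer cell markers were lower than in wild type as well: all 8 of each list were below 0. Summed erythroid signal was 7.34 to 7.91 in Sel1L-deficient and 7.96 to 8.66 in wild-type livers, and summed Kupffer signal 10.52 to 10.84 in Sel1L-deficient and 11.00 to 11.09 in wild-type livers. The erythroid genes Gata1, Epb42, Ermap and Rhag had means below the array medians. Of the sinusoidal endothelial markers 6 of 8 were below 0, of which Lyve1 (-0.49), Stab1 (-0.26) and Kdr (-0.27) had an unadjusted p under 0.05, with a summed signal of 11.00 to 11.30 in Sel1L-deficient and 11.21 to 11.37 in wild-type livers. Of the stellate cell markers 7 of 8 were below 0, with a summed signal of 10.86 to 11.24 in Sel1L-deficient and 11.09 to 11.23 in wild-type livers. Without replicates 3 and 4 all 8 erythroid and all 8 Kupffer markers were still below 0. The endothelial median was then -0.08, against -0.22 with all 4 livers, with 6 of 8 below 0 and 1 at an unadjusted p under 0.05. The stellate median was -0.03, against -0.24, with 5 of 8 below 0. The part of these cells in the difference was not tested.

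At 9 weeks the direction was the opposite. Of the 43 genes 38 had higher means in Sel1L-deficient than in wild-type livers, with a median difference of 0.33, beside 0.00 over features with 1 symbol. In 22 members all 3 Sel1L-deficient livers lay above all 3 wild-type livers, against 9.89% of features, and 13 of these 22 were replication genes. Mcm10 lay below in all 3, against 8.52% of features. Prim1 alone was called, in the upward direction, against 1.52% of features called and 1.03% called higher. At an unadjusted p under 0.05, 10 members were higher, against 7.86% of features, and Mcm10 was lower, against 6.04%. With only the livers of these 2 groups in the limma fit, 20 members were higher, against 7.28%, and 1 was lower, against 5.23%. The wild-type livers of 9 weeks also enter the comparison of ages in wild type, so these differences and those falls share samples.

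Prim1 was at 4.46, 5.00 and 4.61 in Sel1L-deficient livers at 9 weeks, against 3.19, 3.56 and 3.72 in wild type. The lowest Sel1L-deficient liver is well above the highest wild-type liver, and the wild-type values are at or below the array medians. The difference was 1.20 ± 0.26 (SE, adjusted p = 0.047), or 2.30-fold higher. The call is a narrow one: leaving out each of the 13 livers in turn, it was kept 3 times and lost 10 times, with differences of 1.05 to 1.32 and adjusted p of 0.0365 to 0.19.

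Mcm6 was at 5.76, 5.86 and 5.62 in Sel1L-deficient livers at 9 weeks, against 4.80, 4.71 and 4.59 in wild type (1.05 ± 0.27, SE, adjusted p = 0.0864). Chek1 was at 4.48, 4.35 and 4.52 in Sel1L-deficient livers, against 3.53, 3.30 and 3.76 in wild type (0.92 ± 0.21, SE, adjusted p = 0.061). Both sets of values are well separated though neither passed. Rrm1 was at 5.83, 6.18 and 6.14 in Sel1L-deficient livers, against 5.09, 5.46 and 5.41 in wild type (0.73 ± 0.23, SE, adjusted p = 0.16). Of the other helicase genes, Mcm2 (0.66), Mcm3 (0.81), Mcm4 (0.39), Mcm5 (0.66) and Mcm7 (0.48) likewise did not overlap between genotypes.

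Among the mitosis genes Ect2 had the largest difference, at 5.23, 5.68 and 5.67 in Sel1L-deficient livers at 9 weeks against 4.46, 4.40 and 4.44 in wild type (1.09 ± 0.32, SE, adjusted p = 0.131). Ccna2 was at 4.24, 4.82 and 4.41 in Sel1L-deficient livers, against 3.59, 4.00 and 3.66 in wild type (0.74 ± 0.29, SE, adjusted p = 0.266). Ccnb2, Plk1, Bub1b, Birc5, Kif11, Tpx2 and Prc1 also stood apart, by means of 0.26 to 0.63. The mitotic kinases Cdk1 (0.12), Aurka (0.06) and Aurkb (0.10) were close to wild type, with intervals (95%) of -0.58 to 0.81, -0.33 to 0.45 and -0.49 to 0.69. Cdc20 was at 4.28, 3.96 and 3.85 in Sel1L-deficient livers, against 3.68, 3.54 and 3.88 in wild type, and Cenpa at 5.38, 5.32 and 5.29 against 5.54, 5.21 and 5.10. Both overlap. Top2a was at 4.23, 4.65 and 4.40 in Sel1L-deficient livers against 4.35, 3.88 and 3.36 in wild type, and Mki67 at 3.54, 4.33 and 4.14 against 3.78, 3.74 and 3.42. These 2 genes overlap as well.

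Mcm10 ran against the other members here too. It was at 5.90, 5.15 and 5.80 in Sel1L-deficient livers at 9 weeks, against 6.14, 6.71 and 6.19 in wild type, a difference of -0.73 ± 0.20 (SE, adjusted p = 0.101). With the array position column in the fit it passed, at an adjusted p of 0.0403, and Prim1 did not, at 0.0759. E2f8 (-0.10), Cdc25c (-0.03), Cenpe (-0.05) and Kif23 (-0.19) were the other members below 0. Within position column 5 the median of the 43 was 0.31 (2 Sel1L-deficient livers, 1 wild-type liver) and within column 7 it was 0.38 (1 Sel1L-deficient liver, 2 wild-type livers). At this age 7 of 8 erythroid markers were below 0, with a summed signal of 7.10 to 7.51 in Sel1L-deficient and 7.68 to 8.27 in wild-type livers. Summed Kupffer signal was 9.90 to 11.04 in Sel1L-deficient and 10.38 to 10.84 in wild-type livers.

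**Figure D4:**
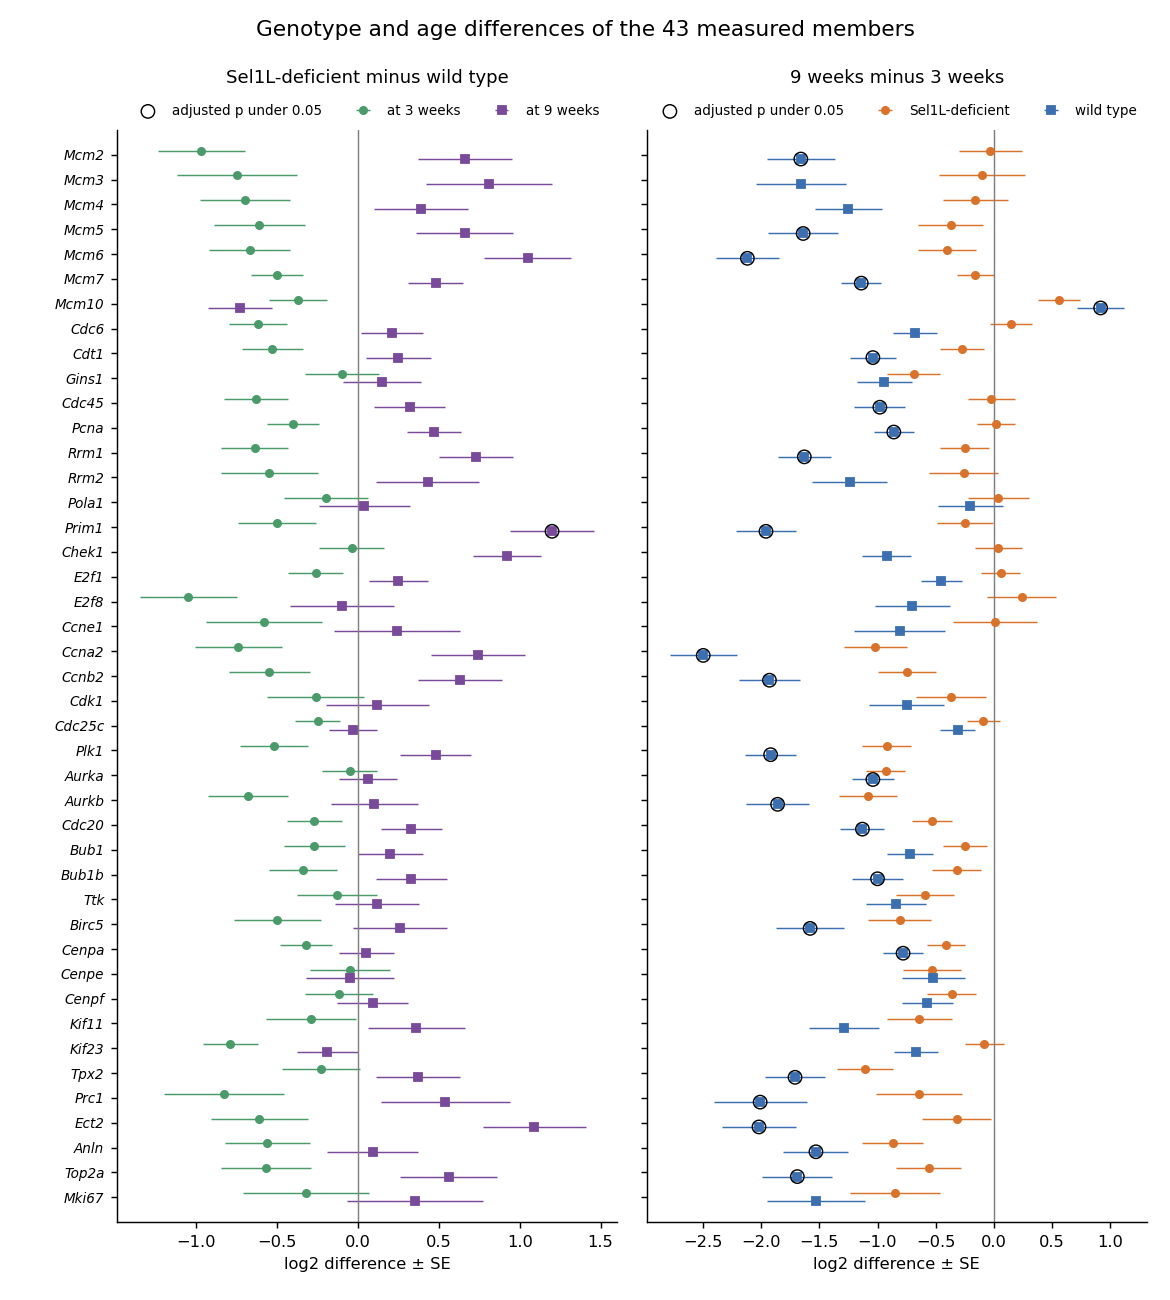
Fitted log2 difference of each of the 43 genes (rows, by role) with its SE as a bar, between genotypes (left, Sel1L-deficient minus wild type, circles at 3 and squares at 9 weeks) and between ages (right, 9 minus 3 weeks, circles for Sel1L-deficient and squares for wild type), with rings where the adjusted p was under 0.05. Genotype differences lie below 0 at 3 weeks and mostly above 0 at 9 weeks, and the difference between ages is the more negative one in wild type for 41 of 42 genes.

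The genotype difference at 9 weeks less that at 3 weeks (the interaction) was above 0 in 41 of 43 members, with a median of 0.78 beside 0.00 over features with 1 symbol. It is the same quantity as the change with age in Sel1L-deficient livers less that in wild type. No member was called and neither was any of the 35556 features (0%), while 23 of 43 had an unadjusted p under 0.05 in the upward direction, against 5.18% of features. The smallest adjusted p was 0.193, for Prim1, at 1.70 ± 0.35 (SE) with a 95% interval of 0.93 to 2.47. By p, Mcm6 (1.72), Rrm1 (1.38), Mcm2 (1.63), Mcm7 (0.98) and Ect2 (1.70) came next. Aurka (0.11) and Cdk1 (0.38) had small values, with 95% intervals of -0.42 to 0.65 and -0.57 to 1.34. Without replicates 3 and 4 of the 3-week Sel1L-deficient livers the median was 0.39, 36 members were above 0 and 15 had an unadjusted p under 0.05, against 3.61% of features.

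In the group means, 38 of 43 members (88.4%) were below wild type at 3 weeks and above it at 9 weeks in Sel1L-deficient livers, against 23.3% of features with 1 symbol. The order wild type at 3 weeks, Sel1L-deficient at 3 weeks, Sel1L-deficient at 9 weeks, wild type at 9 weeks, from high to low, was that of 32 members (74.4%) and of 6.24% of those features. Without replicates 3 and 4 at 3 weeks each of these counts was 27 of 43 (62.8%), against 22.7% of features for the first and 6.03% for the second.

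A further 104 cell cycle genes, of 108 listed, had medians of the same sign in each comparison. In wild-type livers the median was -0.47, and 25 of the 104 fell between 3 and 9 weeks, against 1.12% of features, and none rose. These were 10 of 34 other replication genes, 14 of 37 other mitosis genes and 1 of 13 inhibitors, with 0 of 9 G1 cyclins and kinases and 0 of 11 other E2F and DREAM factors. The falls included the condensin gene Ncaph (-1.83), the kinesin Kif2c (-1.57) and Uhrf1 (-1.59), which maintains DNA methylation at replication forks. At 3 weeks 86 of the 104 were lower in Sel1L-deficient than in wild-type livers, none was called and 24 had an unadjusted p under 0.05 in the downward direction, against 3.5% of features. Without replicates 3 and 4 these counts were 65 and 5, against 2.08% of features. Examples with all 4 livers are Brca1 of DNA repair (-0.51), Rpa1, which coats single-stranded DNA (-0.37), and Nuf2 of the kinetochore (-0.71).

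At 9 weeks 71 of the 104 were higher in Sel1L-deficient livers and 2 were called, against 1.52% of features, in opposite directions. Ckap2, a spindle-associated protein, was at 3.36, 3.57 and 3.57 in Sel1L-deficient livers, against 2.69, 2.67 and 2.65 in wild type (0.83 ± 0.18, SE, adjusted p = 0.0485). All of these values are below the array medians. Tk1, the thymidine kinase of S phase cells, was at 6.67, 6.46 and 6.26 in Sel1L-deficient livers, against 7.19, 7.27 and 7.20 in wild type (-0.76 ± 0.16, SE, adjusted p = 0.0426). Tk1 also fell with age in Sel1L-deficient livers, by 0.92 (adjusted p = 0.0477), so it was the only one of the 104 called in that comparison and ran against the replication genes above.

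No gene of the G1 cyclins and kinases or of the inhibitors was called between genotypes at 9 weeks. Of the 9 G1 genes 6 were above 0, with a median of 0.26, and of the 13 inhibitors 8 were, with a median of 0.06, and in each list 3 genes had an unadjusted p under 0.05, all in the upward direction. The gene with the smallest p of each list is given here. Ccnd1, cyclin D1 of the G1 phase, was at 8.23, 8.06 and 9.16 in Sel1L-deficient livers, against 7.55, 7.13 and 6.62 in wild type (1.38 ± 0.39, SE, adjusted p = 0.119). Cdkn1a, the p21 inhibitor of cyclin-dependent kinases, was at 7.30, 8.95 and 8.42 in Sel1L-deficient livers, against 5.19, 5.33 and 6.78 in wild type (2.46 ± 0.64, SE, adjusted p = 0.0944). In neither gene did the groups overlap. At 3 weeks Cdkn1a was at 8.27, 8.29, 7.07 and 6.29 in Sel1L-deficient livers, against 6.78, 6.72 and 8.04 in wild type, so that the 2 livers low in replication and mitosis genes were also lower in Cdkn1a than the other 2.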

How the data were processed

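The values are log2 expression values that the authors deposited, 1 per array feature and liver, made by RMA per the submitters' processing notes; no version, software or build is stated there. RMA corrects background and quantile-normalizes the arrays, so a shift common to most genes is largely removed. There are no detection calls. Of 35556 features, 21218 carry 1 gene symbol of the platform annotation, for 18820 genes. The members and lists were chosen with earlier results of these data known.

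Titles gave the groups and replicate numbers. For replicate 3 of each genotype at 9 weeks, the number in the array description differs from that in the title, which was used. The 5 contrasts were tested with limma 3.58.1 (R 4.3.3), fitting 1 mean for each group of the 13 livers with lmFit and then eBayes, two-sided. The p-values were adjusted by Benjamini-Hochberg across the whole table, and a feature was called where its adjusted p was below 0.05. SE, intervals and adjusted p are from this fit. On simulated data with the design of the 3-week comparison over 35556 features it recovered 76% of shifts of 1 and 95% of shifts of 2 log2 units, with 10 false calls. The shifted features were drawn at random from the whole array, with independent noise. At 3 weeks the members had median SDs of 0.42 and 0.342, against 0.156 and 0.153 over all features. These shares therefore do not give the recovery for the members. Named in full were Mcm2, Mki67, Top2a, Ccna2, Cdk1, the gene of each role with the smallest p in each comparison of genotypes or ages, and members called between genotypes. Labels do not say whether livers share litters, and the number of arrays limits the precision. Promoters are RefSeq's (GRCm38.p6). Alternatives changed the samples in the fit, the features tested, the variance model, array weights, centring and the feature of a gene. Others added a term for the array position column or for the replicate number.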

Additional observations from a re-analysis of the deposited data

Results flagged for a closer look

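Of the 43 members, 1 was flagged for a liver far from the others of its group, which was the only group of 4 livers. Gins1, a subunit of the GINS complex of the replicative helicase, was at 5.20 in Sel1L-deficient replicate 3 at 3 weeks, against 5.44, 5.47 and 5.45 in replicates 1, 2 and 4, with a gap of 0.868 of the group's range. Chance marks about 1 in 20 such groups, and 1 of 43 is below that share. Livers that stood apart in groups of 3 were not flagged. An example is Ect2 in Sel1L-deficient livers at 9 weeks, at 5.23 in replicate 1 against 5.68 and 5.67.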

How the results depend on the processing

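The direction of the median difference of the 43 genes was the same in all 5 comparisons under every alternative. With 1 liver left out the medians were -0.61 to -0.37 (genotype, 3 weeks), 0.27 to 0.34 (genotype, 9 weeks), -1.31 to -1.02 (age, wild type), -0.44 to -0.18 (age, Sel1L-deficient) and 0.63 to 0.92 (interaction). Leaving out both low Sel1L-deficient livers of 3 weeks, replicates 3 and 4 (chosen after seeing the data), gave medians of -0.13 at 3 weeks, -0.68 for age in Sel1L-deficient livers and 0.39 for the interaction. Counts of called genes depended on the fit. Between genotypes at 9 weeks, where 1 gene was called, the count was 0 with only the 2 groups compared or with centred arrays, 2 with array weights, 3 with only features of 1 symbol, with only features above the median mean, with the mean of a gene's features or without replicates 3 and 4, and 0 to 1 with 1 liver left out. The further genes were Mcm6 and Chek1, and Ect2 without replicates 3 and 4. Over the array, 539 features were called in the main fit, 1 with only the 2 groups, 423 with centred arrays and 1106 with array weights. The number was 703 with features of 1 symbol, 859 with features above the median mean and 279 without replicates 3 and 4. With 1 liver left out it was 18 to 1178. With age in wild type, where 24 members were called, the count of members was 10 to 24 with 1 liver left out. Features called were 672 in the main fit and 296 to 639 with 1 liver left out. With age in Sel1L-deficient livers, 0 members were called. The count of members was 1 with features of 1 symbol, with features above the median mean or with array weights. It was 2 with the mean of features, 5 without replicates 3 and 4, and 0 to 2 with 1 liver left out. Of all array features, 55 were called in this comparison in the main fit and 67 without replicates 3 and 4. The number was 144 with features of 1 symbol, 109 with features above the median mean and 151 with array weights. With 1 liver left out, 6 to 210 features were called. Fewer features were tested with 1 symbol or above the median mean; the causes of the other changes were not tested. At 3 weeks and in the interaction the count of members was 0 under each alternative, and 0 features were called in the main fit. Deviations of same-numbered livers from their group means had correlations of -0.0113 to 0.0713, against -0.0851 to 0.0594 for other pairs of livers. In the comparison of ages in wild type, all same-numbered pairs were above 0 (0.0272 to 0.0382) and all others below 0. The numbers, taken from titles, were not used as pairs in the main fit. With 3 or 4 livers a group, these small correlations cannot show whether livers were paired. With the replicate block the counts of members were 0, 1, 26, 0 and 0 in the order above, beside 0, 184, 440, 12 and 0 features. The 1 gene was Mcm6 (adjusted p = 0.0376), with Prim1 at 0.0641. With 3 or 4 livers a group and values near the array medians, small differences of the dim members could not be detected.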
